A study of Mus musculus with 2 samples.

Results

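Nuclear genes for the proteins of the mitochondrial ribosome were examined in total RNA of granulocyte-monocyte progenitors, bone marrow precursors of the neutrophil and monocyte lineages. A gene was included when its annotated type was protein-coding and its symbol was Mrpl or Mrps followed by a number. This rule gave 78 genes of 43346 annotated genes in the deposited tables, and 21462 of the latter were nuclear protein-coding genes. They lie on 17 chromosomes, and 5 further genes with such a symbol were left out because they are annotated as pseudogenes. The series held 1 group of 2 libraries, named as biological replicates 1 and 2 and tied in the labels to 1 donor record. Both libraries came from primary cells of the strain C57BL/6J, male and adult at 5 to 6 weeks, with no treatment or allele named. Ribosomal RNA was depleted and 100 ng was the starting amount in each. No condition was compared, so no p-value is given. The results are levels, contrasts between genes within a library, and the spread between the libraries, which may be technical.

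The mitochondrial ribosome translates the few messenger RNAs that mitochondrial DNA encodes, which specify membrane subunits of the respiratory chain and of ATP synthase. Its ribosomal RNAs are made inside the organelle, whereas all of its proteins are encoded in the nucleus, made on cytosolic ribosomes and imported. Part of the proteins have counterparts in bacterial ribosomes, and the rest were acquired by the mitochondrial lineage. Symbols beginning with Mrpl were given to proteins assigned to the large subunit and those beginning with Mrps to the small subunit. Structures later placed the products of Mrps18a and Mrps30 in the large subunit. The product of Mrps36 is now known as a component of the 2-oxoglutarate dehydrogenase complex of the citric acid cycle, and it was kept because the symbol rule includes it. By these places 51 of the genes encoded large-subunit proteins and 26 small-subunit proteins, with 44 of bacterial type, 31 specific to mitochondria and 3 of unassigned origin.

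Replicate 1 held 49473848 and replicate 2 held 44260902 expected counts, the estimated number of reads assigned to a gene. Of 6 marker genes of these progenitors, all 6 were at or above 10 TPM (the deposited transcript abundance, corrected for length and scaled to a fixed total per library) in both libraries. Mpo, encoding myeloperoxidase, had a mean of 2420 TPM, and Kit, encoding the stem cell factor receptor, 22.1 TPM. Of 6 markers of other blood and vessel cells, 5 were below 1 TPM in both libraries and 2 of these, Ly6a and Cd3e, had 0 counts, while the endothelial and myeloid adhesion molecule gene Pecam1 was at 9.16 and 10.85 TPM. The share of all TPM on nuclear protein-coding genes was 19.1% in replicate 1, against 22.8% in replicate 2. The TPM of a gene can therefore be higher in replicate 2 when its share of protein-coding RNA is not. Rescaled TPM below is TPM scaled to the same total over nuclear protein-coding genes in each library.

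The sequences that bear most on how these genes are read in the data are those of their near-identical copies. Mrpl23 encodes a protein at the exit of the polypeptide tunnel and lies at chr7:142532686-142540747 on the plus strand (mm10). Its processed pseudogene Mrpl23-ps1 lies at chr2:74591330-74591909 on the minus strand. Over all 438 coding bases of transcript Mrpl23-201 the copy had 0 mismatches, so a read from inside the coding sequence has no base by which to assign it. Coding bases 190 to 249 of both, taken from the GENCODE M21 transcript sequences and written 5′ to 3′, are shown because the assignment of reads between these loci sets the value of Mrpl23.
Mrpl23-201: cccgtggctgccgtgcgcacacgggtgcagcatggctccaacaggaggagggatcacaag
Mrpl23-ps1: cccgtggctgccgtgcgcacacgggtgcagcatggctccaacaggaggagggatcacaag
Mrps33, a small-subunit gene at chr6:39801804-39810988 on the minus strand, has a copy named Gm5776 at chr7:54412158-54412478 on the minus strand. These differ at 1 of 318 coding bases, in capitals here within coding bases 141 to 200.
Mrps33-201: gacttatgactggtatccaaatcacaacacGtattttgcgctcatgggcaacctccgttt
Gm5776: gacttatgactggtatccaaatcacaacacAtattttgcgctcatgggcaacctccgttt

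The split between gene and copy differed between the libraries in both pairs. Mrpl23 had 0 expected counts in replicate 1 and 486 in replicate 2, and its pseudogene had 2116 and 940. All 100% of the summed count stood with the copy in replicate 1 and 65.9% in replicate 2. Summed, the loci had 2116 and 1426 counts, or 42.8 and 32.2 CPM (counts scaled to the library total), a log2 difference of -0.41. A count of 0 allows up to 3 counts, or 0.0606 CPM, by counting error alone, and that limit does not cover an error of assignment. Mrps33 had 1397 and 1064 counts and Gm5776 had 87.6 and 279, so the copy held 5.90% of the sum in replicate 1 and 20.8% in replicate 2. The sum of Mrps33 and its copy was 1485 and 1343 counts, a log2 CPM difference of 0.02, whereas Mrps33 alone differed by -0.28.

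Among all the genes, 18 had at least 1 copy elsewhere that matched their coding sequence at 95% identity or more over at least 100 bases. These copies numbered 25, of which 24 were annotated as processed pseudogenes. The deposited tables listed 19 of them, and 6 of the 19 had 0 counts in both libraries. Only for Mrpl23 and Mrps33 did a listed copy hold more than 5% of the summed counts in a library. For example, Mrpl48-ps held 1.91% and 1.01% of its sum with Mrpl48. Counts more than 0.1 from a whole number in a library, as reads divided between features give, were found for 10 of the 78 genes. Levels of the 18 genes are uncertain by the reads that may have been divided. Shares of all genes with copies or with fractional counts are not given here.

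**Figure D1:**
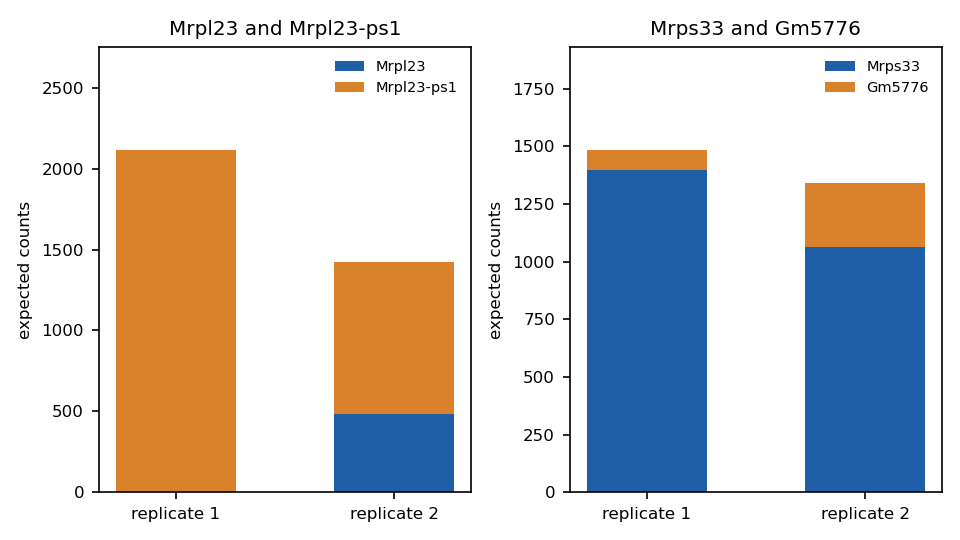
Expected counts (vertical axes, starting at 0) of Mrpl23 with Mrpl23-ps1 and of Mrps33 with Gm5776 in each library, stacked so that the height of a bar is the sum of gene and copy. Mrpl23 takes none of 2116 counts in replicate 1 and 486 of 1426 in replicate 2, while Mrps33 keeps most of its sum in both.

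The mitochondrial ribosomal protein genes were expressed almost without exception, at moderate levels. At or above 1 TPM in both libraries were 77 of the 78, or 98.7%, against 40.8% of nuclear protein-coding genes, and the exception was Mrpl23 with its 0 in replicate 1. At or above 10 TPM in both were 49, or 62.8%, against 14.3%. The median level was 13.0 TPM in the first library and 14.4 TPM in the other, a median log2(TPM + 1) of 3.88 ± 0.10 (SD, n = 2). Means of the 2 libraries ran from 3.04 TPM for Mrps6 to 83.0 TPM for Mrps21, a range of 27.3-fold. Behind these levels stood a median of 1707 expected counts per gene in replicate 1 and 1584 in replicate 2, and 56 genes had at least 1000 counts in both.

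In all, 0.690% of nuclear protein-coding TPM stood on the 78 genes in replicate 1 and 0.695% in replicate 2, a mean of 0.692% ± 0.00360 (SD, n = 2). The 10 most abundant genes of each library supplied 33.7% and 36.0% of that share. By raw TPM 58 of the 78 were higher in replicate 2, and by rescaled TPM 41 were. The same shares over all genes are not given here. The medians were 13.0 and 14.4 in raw TPM but 68.0 and 63.2 in rescaled TPM, so the direction of the difference between the libraries depended on the scale.

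**Figure D2:**
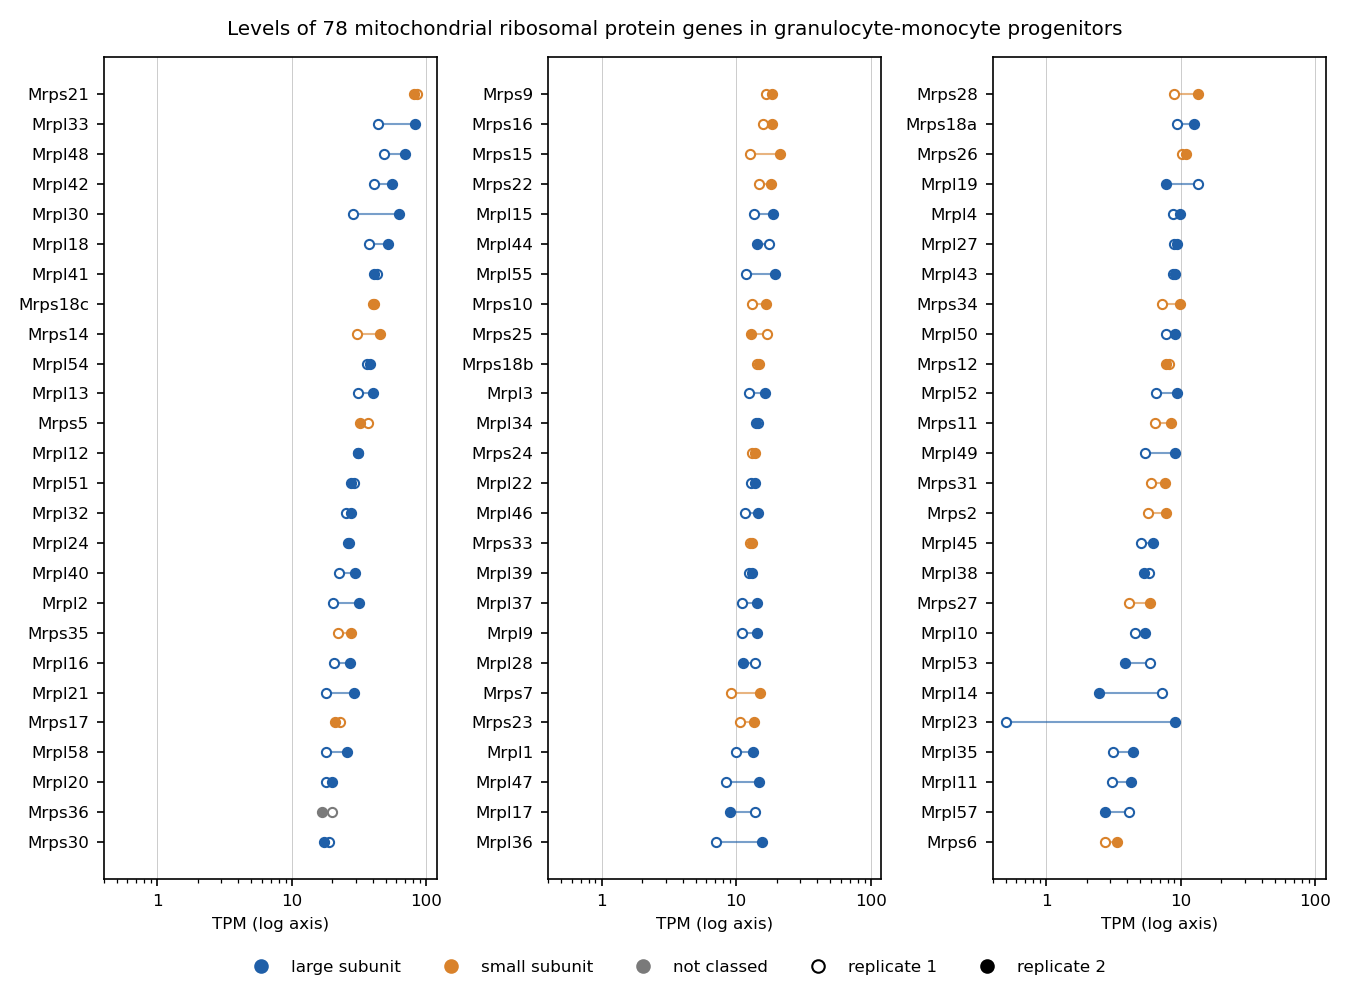
Level of each of the 78 genes in TPM (horizontal log axes) in replicate 1 (open circles) and replicate 2 (filled circles), joined by a line and ordered by mean; blue marks large-subunit, orange small-subunit and grey unassigned genes, and the 0 of Mrpl23 in replicate 1 is drawn at 0.5. Both subunits are spread over the whole range, from Mrps21 at a mean of 83.0 TPM to Mrps6 at 3.04 TPM.

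Mrps21, encoding a small-subunit protein of bacterial type, had the highest level. It lies at chr3:95862634-95871519 on the minus strand and measured 85.2 TPM in the first library and 80.8 TPM in the other, from 3149 and 2087 counts. Mrpl33, of the large subunit, followed with 43.9 and 83.0 TPM, so its place in the order rested on replicate 2. The identifier of Mrpl33 had changed between annotation releases, and its values come from a deposited gene whose transcript Mrpl33-201 carried 95.8% and 97.2% of the gene's TPM. Of the 11 transcripts deposited for that gene, only this 1 was matched to Mrpl33 in the later release. By counts it held 1821 of 2491 in replicate 1 and 2389 of 3033 in replicate 2, and the rest lay on unmatched transcripts. Mrpl48 was at 48.2 and 69.7 TPM and Mrpl42 at 40.9 and 55.4 TPM, both encoding large-subunit proteins without a bacterial counterpart. In Mrpl48 the 274-base transcript Mrpl48-209 held 60.7% and 58.9% of the TPM, on 422 and 332 of the gene's 2811 and 2089 counts. The place of Mrpl48 in the order therefore rested in large part on this short transcript. Mrpl30, of bacterial type, was at 28.5 and 62.5 TPM, the largest ratio between the libraries among the 10 highest.

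The other 5 of the 10 highest lay closer together. Mrpl18, whose product in bacteria contacts the 5S ribosomal RNA, was at 37.4 and 52.2 TPM with the largest count of any of the genes, 5608 and 5771. Mrpl41, specific to mitochondria, was at 42.8 and 40.9 TPM. Mrps18c was at 40.3 and 41.1 TPM, Mrps14 at 30.8 and 45.6 TPM, and Mrpl54 at 36.3 and 37.9 TPM. The ranges of neighbours in this order overlapped, Mrps21 and Mrpl33 included, so adjacent places were not resolved, while Mrps21 was above the other 8 in both libraries without overlap. The 10 highest genes of replicate 1 and of replicate 2 shared 7 genes.

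The low end was led by genes of both subunits. Mrps6, of bacterial type and in the small subunit, was at 2.72 and 3.35 TPM, from 262 and 237 counts. Mrpl57, specific to mitochondria, was at 4.11 and 2.72 TPM. Mrpl11, encoding a protein at the base of the stalk where translation factors bind, was at 3.07 and 4.25 TPM, and Mrpl35 at 3.15 and 4.45 TPM. Mrpl10, encoding the protein that anchors the stalk, was at 4.56 and 5.40 TPM, while Mrpl12, which forms the stalk itself, was at 31.3 and 30.9 TPM. The stalk gene stood above its 2 partners at the base in both libraries. Mrps27, encoding a pentatricopeptide repeat protein of the small subunit, was at 4.11 and 5.91 TPM, and Mrpl38 at 5.83 and 5.37 TPM.

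Low rank in TPM did not always mean few reads. Mrpl35 had 1605 and 1741 counts and Mrpl11 1196 and 1268, on leading transcripts of 3715 and 2882 bases. Mrpl14, Mrpl53 and Mrpl23 had few counts in at least 1 library. Mrpl14, whose product touches the small subunit across the interface, had 381 and 120 counts and 7.23 and 2.49 TPM. Mrpl53 had 398 and 183 counts, and 695 of its exon bases overlap the protein-coding gene Gm42688 on the same strand, which had 312 and 268 counts. Mrpl23 was at 0 and 9.09 TPM, for which the counts of its pseudogene are given above. Mrps6 shares 159 exon bases with Slc5a3, a transporter gene on the same strand with 1260 and 920 counts. Mrpl52 was at 6.55 and 9.45 TPM on only 222 and 211 counts. The 10 lowest genes of each library also shared 7.

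Several genes carry a known function beyond structure. Mrps12, whose product sits at the decoding centre, was at 8.22 and 7.82 TPM. Mrpl45, whose product tethers the ribosome to the inner membrane, was at 5.05 and 6.26 TPM. Mrpl58, encoding a peptidyl-tRNA hydrolase built into the large subunit, was at 18.0 and 25.7 TPM. Mrpl44, encoding a protein with a ribonuclease III fold, was at 17.5 and 14.3 TPM. Mrps36, the dehydrogenase component, was at 20.0 and 16.9 TPM.

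The genes of the 2 subunits had the same median within the spread between libraries. Large-subunit genes had a median of 13.6 TPM ± 1.12 and small-subunit genes 13.6 TPM ± 0.933 (SD, n = 2, each). The difference of median log2(TPM + 1), large minus small, was -0.02 in replicate 1 and 0.01 in replicate 2, a mean of -0.004 ± 0.019 (SD, n = 2). Genes of bacterial type had a median of 14.7 TPM ± 1.62 and genes specific to mitochondria 12.4 TPM ± 1.05. Their log2 difference was 0.20 in replicate 1 and 0.25 in replicate 2, a mean of 0.22 ± 0.04 (SD, n = 2). It had the same direction in both and was larger than the spread between libraries, which does not measure the spread across genes. Its size varied within subunits. Large-subunit medians of log2(TPM + 1) in replicates 1 and 2 were 3.87 and 3.97 for bacterial type, against 3.67 and 3.93 for those specific to mitochondria. Small-subunit medians were 3.83 and 4.28 against 3.66 and 3.81. Across genes the SD of log2(mean TPM + 1) was 1.03 for bacterial type and 0.95 for those specific to mitochondria, so the groups overlapped widely. The leading transcripts had a median length of 872.5 bases for the former group and 1107 for the latter. Across all 78 genes log2 mean TPM and log2 length of the leading transcript had a Pearson r of -0.47, against -0.46 over 8192 nuclear protein-coding genes. These are correlations across genes of the same libraries, and TPM itself divides by length.

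The spread within subgroups differed in size. The 10 small-subunit genes specific to mitochondria had an SD of 0.61 on the log2 scale, from 5.01 TPM for Mrps27 to 24.9 TPM for Mrps35. The 15 small-subunit genes of bacterial type had an SD of 1.11, from Mrps6 to Mrps21. Large-subunit genes had an SD of 1.00 for the 29 of bacterial type and 1.08 for the 21 specific to mitochondria.

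Mrps18a, Mrps18b and Mrps18c encode related versions of 1 bacterial protein, which take different places in the ribosome. In the groups by origin, Mrps18c was counted as bacterial type and Mrps18a and Mrps18b as specific to mitochondria. Mrps18a was at 9.42 and 12.5 TPM, Mrps18b at 14.4 and 14.7 TPM, and Mrps18c at 40.3 and 41.1 TPM. The order a, b, c held in both libraries without overlap. Mrps18c, the version that takes the bacterial place in the small subunit, was thus the most abundant of the 3. Mrps18b has a copy, Gm13552, with 7.25 and 2.10 counts against 1729 and 1376 of its own.

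The level was also set against other ribosomal and mitochondrial gene groups, in length-corrected TPM. The 84 cytosolic ribosomal protein genes had medians of 389 and 442 TPM. On the log2(TPM + 1) scale the mitochondrial genes stood 4.82 ± 0.03 (SD, n = 2) lower, written as a difference of -4.82. The 85 nuclear genes of oxidative phosphorylation had medians of 34.6 and 39.5 TPM, a difference of -1.37 ± 0.03. Most, but not all, of the protein complexes they encode take up products of the mitochondrial ribosome. Tissue-specific versions belong to both lists, and 3 cytosolic and 6 oxidative phosphorylation genes were below 1 TPM in both libraries. The cytosolic genes held 19.1% and 18.8% of nuclear protein-coding TPM and the oxidative phosphorylation genes 2.20% and 2.27%. Against the 11638 nuclear protein-coding genes with 0.1 TPM or more in at least 1 library, the mitochondrial genes stood 1.44 ± 0.03 higher. Each of these 3 differences had the same direction in both libraries and was far larger than its SD. That SD is between libraries and does not measure the spread across genes.

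**Figure D3:**
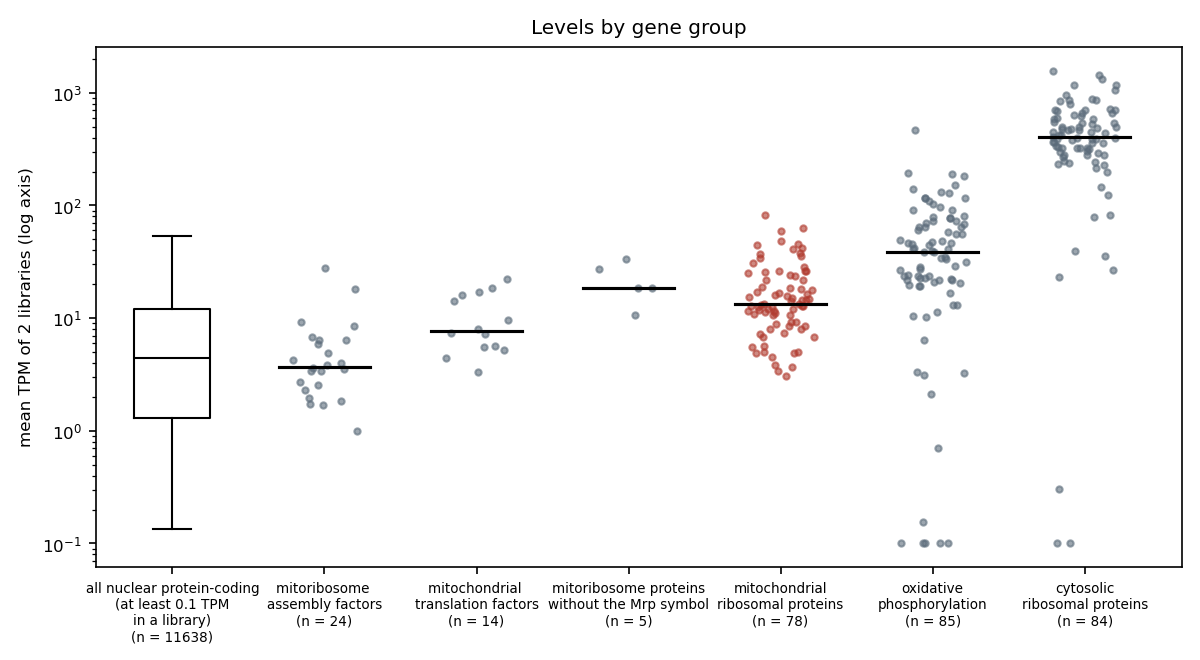
Mean TPM of the 2 libraries (vertical log axis) for genes of 6 groups as points with a line at the median, and for 11638 nuclear protein-coding genes as a box with whiskers at the 5th and 95th percentiles; values under 0.1 are drawn at 0.1. The 78 mitochondrial ribosomal protein genes (red) lie between 3.04 and 83.0 TPM, below most cytosolic ribosomal protein genes and within the range of oxidative phosphorylation genes.

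Other genes of mitochondrial translation were taken as lists. The 5 listed proteins of this ribosome that lack the symbol were all at or above 10 TPM in both libraries, with medians of 17.5 and 22.2 TPM. Chchd1 was highest at 33.5 TPM ± 7.05 (SD, n = 2), then Aurkaip1 at 27.5 TPM ± 5.32 and Ptcd3, a pentatricopeptide repeat protein gene, at 18.7 TPM ± 5.03. Dap3, encoding a GTP-binding protein of the small subunit, was at 18.6 TPM ± 1.55 and Gadd45gip1 at 10.6 TPM ± 0.403. Factors that build the ribosome were lower, with medians of 3.27 and 4.43 TPM over 24 genes, of which 2 were at or above 10 TPM in both libraries. Those were C1qbp, a matrix protein gene, at 28.0 TPM ± 3.77 and Rbfa, encoding a ribosome-binding factor, at 18.3 TPM ± 1.10, followed by Mterf3 at 9.23 TPM ± 3.71. The lowest of that list were the ribosomal RNA methyltransferase genes Mettl15 at 1.73 TPM ± 0.424 and Mrm1 at 1.70 TPM ± 0.141, and Ybey, encoding an endoribonuclease, at 1.00 TPM ± 0.283.

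Factors that run translation or handle its messenger RNAs lay between, with medians of 7.38 and 8.48 TPM over 14 genes and 5 at or above 10 TPM in both. Slirp and Lrpprc, whose products form a complex that stabilizes mitochondrial messenger RNAs, were at 22.4 TPM ± 3.35 and 17.0 TPM ± 2.81 (SD, n = 2). Gfm1, encoding an elongation factor, was at 11.6 and 25.4 TPM, more than 2-fold apart in TPM on 4553 and 5315 counts. The lowest were Mtfmt, the methionyl-tRNA formyltransferase gene, at 5.17 TPM ± 0.757, Mrrf, for the ribosome recycling factor, at 4.45 TPM ± 0.389, and Taco1, an activator of cytochrome oxidase translation, at 3.35 TPM ± 1.65. The 8 genes of mitochondrial transcription, RNA handling and membrane insertion had medians of 6.29 and 6.55 TPM, with 1 at or above 10 TPM in both. Tfam, encoding the factor that packages mitochondrial DNA and starts its transcription, was highest at 17.6 TPM ± 0.509. Pnpt1 and Supv3l1, which act in mitochondrial RNA decay, were at 8.92 and 14.1 TPM and at 7.68 and 12.4 TPM. The lowest were Oxa1l, the inner-membrane insertase gene, at 4.66 TPM ± 0.346, Letm1 at 4.59 TPM ± 0.940 and Polrmt, the mitochondrial RNA polymerase gene, at 2.91 TPM ± 0.552. Over these lists the proteins of the ribosome itself had higher medians than these 3 lists of factors in both libraries.

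Between the libraries most genes differed little in their counts. Ratios were taken as log2 CPM, replicate 2 minus replicate 1, with library scaling, over the 73 genes whose mean CPM was 10 or more. The median was -0.05, with quartiles at -0.25 and 0.14, and 33 of the 73 were above 0. Over 8192 nuclear protein-coding genes at the same floor the median was 0.004, with quartiles at -0.18 and 0.18, and 4143 were above 0. The genes more than 1.5-fold apart numbered 3, or 4.11%, against 6.03% of 8192 nuclear protein-coding genes above the same floor of 10 CPM. That background was not matched on abundance. Of these, 1 was higher in replicate 2, against a background of 2.56%, and 2 were lower, against 3.47%. None of the 73 was more than 2-fold apart, and the share of all genes past that fold is not given here. The median absolute difference was 0.21 for the 73 and 0.18 for the background. The share of genes apart was thus near the background.

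Mrpl36, encoding a very small large-subunit protein of bacterial type, had 735 and 1185 counts and 7.06 and 15.5 TPM, a difference of 0.80. The next higher in replicate 2 were Mrpl30 and Mrpl49 at 0.46 each, Mrpl33 at 0.40 and Mrpl47 at 0.34, all under the 1.5-fold line. Mrpl57 had 1271 and 641 counts, a difference of -0.87, and Mrps36 had 1482 and 893, a difference of -0.61. The next lower were Mrpl28 at -0.57, Mrpl44 at -0.54 and Mrps21 at -0.48. Mrps36 has 4 copies of the kind described above, of which the 3 listed held at most 7.37 counts.

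The 5 genes under 10 CPM were Mrpl14, Mrpl53, Mrpl23, Mrpl52 and Mrps6. Mrpl14 differed by -1.53 and Mrpl53 by -0.997, while Mrpl52 and Mrps6 differed by 0.04 and -0.03. No ratio is given for Mrpl23, which had 0 counts in 1 library. Over 8143 nuclear protein-coding genes the ratio moved with the GC content of the leading transcript, with a Pearson r of -0.38 across genes. Over the 73 mitochondrial ribosomal protein genes r was -0.11. In the fifth of genes richest in GC the median ratio was -0.16 for all genes and -0.23 for the 16 mitochondrial ribosomal ones, and in the fifth poorest in GC it was 0.16 for all and -0.06 for 5. The labels give the size range of the libraries as 200 to 712 for replicate 1 and 200 to 1000 for replicate 2. The part of GC content or size range in single ratios was not tested.

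**Figure D4:**
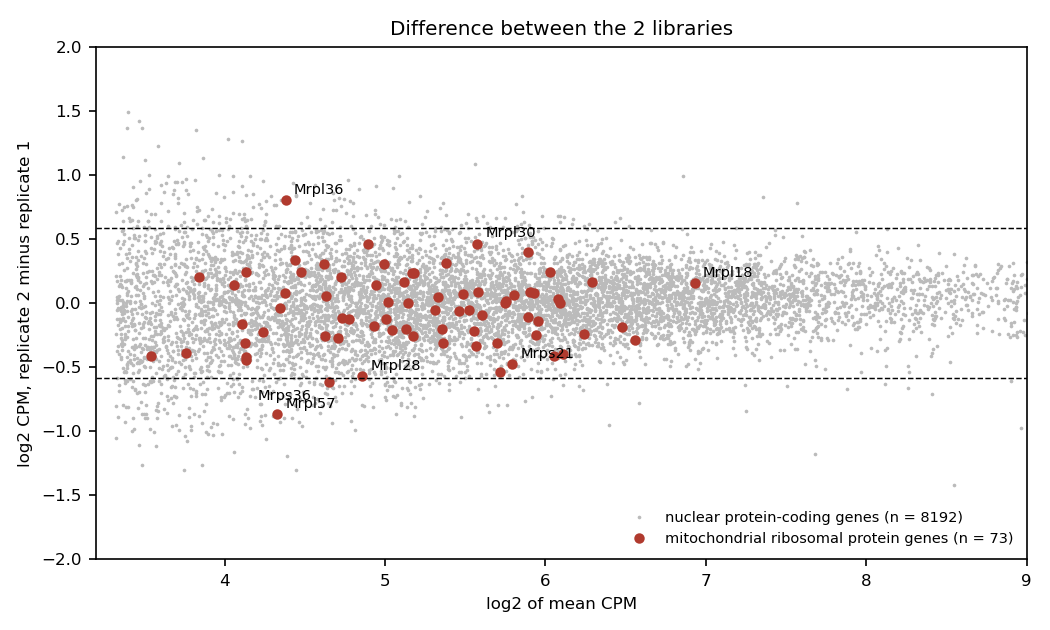
Difference in log2 CPM, replicate 2 minus replicate 1, against log2 of mean CPM for the 73 mitochondrial ribosomal protein genes (red) and 8192 nuclear protein-coding genes (grey), all at a mean CPM of 10 or more; dashed lines mark a 1.5-fold difference and genes beyond the axes are not drawn. Among the red points, only Mrpl36 lies above the upper line and only Mrpl57 and Mrps36 below the lower one.

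TPM and counts parted for a few genes whose reads were assigned to transcripts of different lengths in the 2 libraries. Mrpl19, encoding a large-subunit protein of bacterial type, had 2613 and 2411 counts, a log2 CPM difference of 0.001, but 13.6 and 7.73 TPM. Its transcript Mrpl19-203 is 419 bases long and Mrpl19-201 is 5000 bases long. The short one held 72.9% of the gene's TPM in replicate 1 and 39.0% in replicate 2, on 345 and 69.6 counts, while the long one held 23.7% and 56.1%, on 2231 and 2319 counts. The mean effective length of the gene, by which TPM divides, was 1.06 higher in replicate 2 on the log2 scale. The long transcript thus had most counts in both libraries, while most TPM of replicate 1 stood on the short one.

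Effective length differed by more than 0.4 on the log2 scale for 9 genes, and the share of all genes past that limit is not given here. Mrpl17 had 1638 and 1383 counts and 13.9 and 9.07 TPM, with a difference in effective length of 0.74, and its transcript Mrpl17-204 of 459 bases held 72.6% and 36.8%. Mrps25 had 2669 and 2566 counts, 17.0 and 12.9 TPM and a difference of 0.71. In the other direction Mrpl48 had an effective length difference of -0.59, Mrpl2 and Mrpl58 of -0.48 and -0.47, Mrps7 of -0.46 and Mrpl30 of -0.42. The ninth was Mrpl23, with its 0 in replicate 1. Mrpl30 had 1943 and 2472 counts, and its 501-base transcript Mrpl30-206 held 44.5% and 67.2% of its 28.5 and 62.5 TPM. Of the 73 genes at 10 CPM or more, 7 were over 1.5-fold apart in rescaled TPM, or 9.59%, against 3 by counts, and against 11.1% of the 8192 background genes in rescaled TPM.

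**Figure D5:**
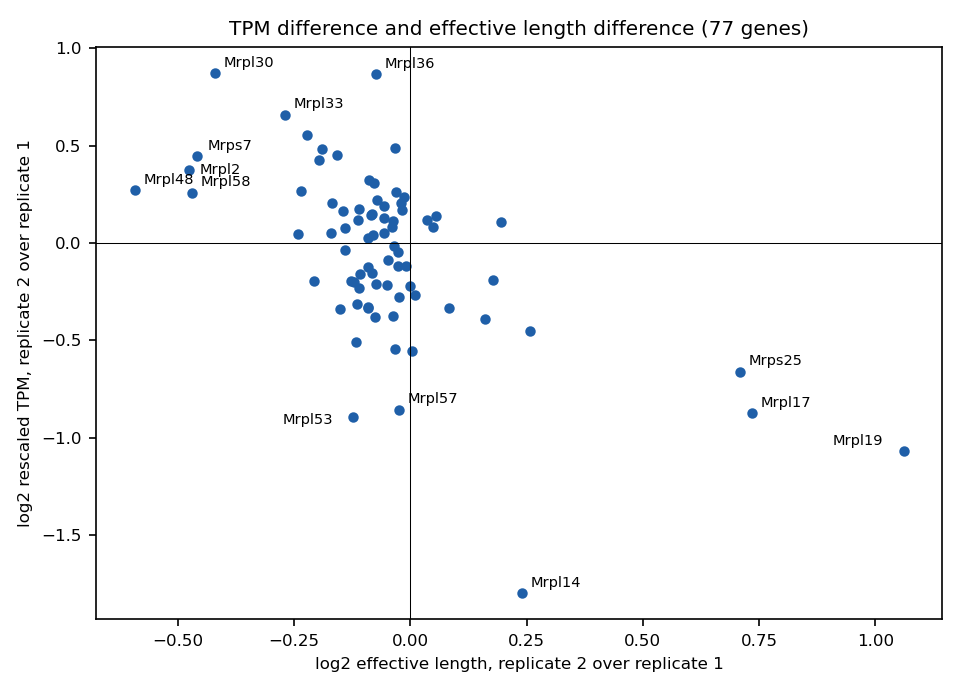
Difference in rescaled TPM (vertical axis) against difference in effective length (horizontal axis), both log2 of replicate 2 over replicate 1, for 77 genes, leaving out Mrpl23. Mrpl19, Mrpl17 and Mrps25 lie at the lower right, with effective lengths 0.71 to 1.06 higher in replicate 2, while Mrpl14, Mrpl57 and Mrpl53 are low and Mrpl36 is high with effective lengths less than 0.4 apart.

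Transcript usage is described here with no share over all genes to set beside it. A single annotated transcript was listed for 19, and the most for any gene was 11. The leading transcript, the one with the largest percent of the gene's TPM in the deposited tables, was the same in both libraries for 71. It held at least 90% in both libraries for 38. The 71 and the 38 include the 19 genes with a single listed transcript, for which both outcomes are fixed in advance. The median share of TPM on transcripts annotated as protein-coding was 97.7% in replicate 1 and 99.5% in replicate 2.

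The leading transcript differed between the libraries for 7 genes. Besides Mrpl19 and Mrpl23, whose leading transcript in replicate 1 rests on 0 counts, these were Mrpl14, Mrpl24, Mrpl55, Mrps21 and Mrps7. In Mrps21 the 405-base Mrps21-202 led in replicate 1 with 67.3% and the 488-base Mrps21-201 in replicate 2 with 49.6%, both protein-coding. In Mrpl14 the non-coding Mrpl14-202 held 75.9% in replicate 1, on 263 counts, and had 0 counts in replicate 2, where the coding Mrpl14-201 held 100%. The coding transcript itself had 118 and 120 counts, so the difference of Mrpl14 between the libraries stood on the other transcript. In Mrpl24 the highest shares of any transcript were 30.2% and 23.0%. In Mrpl55 the lead was with Mrpl55-203 in replicate 1 at 60.9% and with Mrpl55-205 in replicate 2 at 39.4%, the latter at 0 counts in replicate 1. In Mrps7 it was with the coding Mrps7-201 at 65.1% and the non-coding Mrps7-202 at 57.7%.

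For 14 genes a transcript not annotated as protein-coding led in at least 1 library. Types here are those of GENCODE M21, while the deposited values rest on GENCODE M4, and the types in M4 were not examined. Retained-intron transcripts held 94.3% and 98.0% of TPM for Mrps24, 91.6% and 85.7% for Mrps5, 87.4% and 74.2% for Mrps25, and 87.3% and 89.1% for Mrps26. Shares by counts differed from shares by TPM where the coding transcript was long. The 6073-base coding transcript Mrps25-203 had 1819 and 2179 counts of the gene's 2669 and 2566, and Mrps5-201, also coding, had 1906 and 2195 of 4625 and 3753. For Mrps24 the coding Mrps24-205 had only 89.1 and 24.4 counts. Transcripts annotated for nonsense-mediated decay, the pathway that destroys messages with early stop codons, led for Mrpl3 with 72.4% and 64.5%, for Mrps14 with 93.1% and 92.3%, and for Mrpl32, whose only listed transcript has this type. Other non-coding transcripts led for Mrpl15, Mrpl47 and Mrpl51. In counts the coding Mrpl51-201 had 2087 of 3997 and 1930 of 3114, and the coding Mrpl47-201 had 565 of 930 and 633 of 1086. As many as 8 genes had at least 10% of TPM on retained-intron transcripts in both libraries. Leading shares under 60% in both libraries were found for 5 genes, Mrpl13, Mrpl24, Mrpl51, Mrps5 and Mrps11. Mrps11-201, coding, held 46.1% and 49.7%, and Mrpl13-205, coding, 43.8% and 54.5%.

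The genes often shared their start region with another gene. A protein-coding gene on the opposite strand, with its start at most 1000 bases off, was found for 33 of the 78, or 42.3%. The share of 21938 annotated protein-coding genes was 10.8%, a background not matched on expression. The 33 include pairs whose exons overlap, as Mrps30 and B430218F22Rik with 623 bases, and pairs without exon overlap. The median distance between the starts, for the 31 with a partner outside the group, was 126 bases. The partners had a median of 4.50 TPM, from 0.0200 to 265 TPM, against 14.5 TPM for the 31 genes themselves, and 8 of the partners were at or above 10 TPM in both libraries. The mitochondrial ribosomal gene was the higher of the pair in 21 of 31. Spearman's rho between the levels of the partners was 0.22 across these 31 pairs, measured in the same libraries.

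The pairs named here are examples, and the partners with a mitochondrial role were not counted. At the low end Mrps30 was paired with B430218F22Rik at 0.01 and 0.03 TPM, and Mrpl10 with Lrrc46 at 0.02 and 0.26 TPM. Mrpl49 lies 59 bases from the start of Fau, which encodes a cytosolic ribosomal protein, and was at 5.44 and 9.15 TPM against 287 and 243 TPM for Fau. Mrpl18 was paired with Tcp1, a chaperonin subunit gene at 176 and 219 TPM, and Mrpl32 with the proteasome gene Psma2 at 59.6 and 72.4 TPM. In 2 pairs the partner encodes a subunit of respiratory complex I: Mrpl36 with Ndufs6 at 20.1 and 23.2 TPM, and Mrpl47 with Ndufb5 at 52.2 and 58.7 TPM. Other partners act in mitochondrial DNA or tRNA metabolism, as Twnk, the mitochondrial DNA helicase gene next to Mrpl43, at 3.78 and 4.08 TPM, and Sars2, the mitochondrial seryl-tRNA synthetase gene next to Mrps12, at 1.97 and 2.66 TPM. The only pair inside the group was Mrps11 at 6.42 and 8.48 TPM and Mrpl46 at 11.7 and 14.5 TPM, on chromosome 7. Their starts are 412 bases apart and 173 exon bases overlap on opposite strands.

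Exon overlap on the opposite strand concerned 28 of the 78 genes, or 35.9%, and same-strand exon overlap 8. The same shares over all protein-coding genes are not given here, so these counts do not set the group apart from other genes. The sources used here do not say whether counting used the strand of the reads, so reads of overlapping exons may be shared between such genes. The part of this overlap in their levels was not tested.

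Promoter windows of 250 bases before to 50 after the start, taken from RefSeq on GRCm38.p6, were found for 69 of the 78 genes. The letters CCGGAAG, the core bound by ETS factors such as GA-binding protein, were searched on both strands. They were found for 26 of the 69, or 37.7%, against 13.4% of 16522 protein-coding genes. This background, also used for the other motifs, was not matched on expression or on CG dinucleotides, and CCGGAAG itself holds a CG. The 26 genes held 31 matches, of which 22 began before the start and 19 of those within 100 bases of it. The following 4 stretches of 100 bases immediately before a start carry a match that overlaps no annotated exon, and are shown 5′ to 3′ on the strand of the gene with the match, or its reverse complement, in capitals. They lie at chr19:45006443-45006542 (minus) for Mrpl43, chr14:54426809-54426908 (plus) for Mrpl52, chr11:115403652-115403751 (plus) for Mrpl58 and chr9:98601680-98601779 (minus) for Mrps22.
Mrpl43: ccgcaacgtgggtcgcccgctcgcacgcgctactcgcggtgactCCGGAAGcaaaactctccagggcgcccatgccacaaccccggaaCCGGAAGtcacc
Mrpl52: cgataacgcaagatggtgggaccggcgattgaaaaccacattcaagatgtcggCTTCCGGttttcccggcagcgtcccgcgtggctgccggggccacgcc
Mrpl58: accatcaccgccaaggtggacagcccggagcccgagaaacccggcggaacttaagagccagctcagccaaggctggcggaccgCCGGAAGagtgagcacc
Mrps22: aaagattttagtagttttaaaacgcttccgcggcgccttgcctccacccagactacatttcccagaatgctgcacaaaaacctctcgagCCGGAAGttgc
Mrpl43 shows 2 matches and the others 1 each in these stretches.

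The 26 genes with a match had a median of 13.8 TPM and the 43 without one 13.5 TPM, a difference of the medians that was not tested. All 3 of Mrps18a, Mrps18b and Mrps18c had a match, as did Mrps21 at the top and Mrpl57 near the bottom of the order. Of other motifs searched on both strands, GCATGCGC, part of the site of nuclear respiratory factor 1, was found for 8 genes, or 11.6%, against 4.11%. GATGGCGGC, a form of the YY1 site, was found for 5, or 7.25%, against 1.73%. CCAAT was found for 27, or 39.1%, against 42.1%, CACGTG for 5, or 7.25%, against 9.18%, and TATAAA for 5, or 7.25%, against 14.3%. The 5 genes with the YY1 form had a median of 7.45 TPM against 14.5 TPM for the 64 without it, and the 5 with TATAAA 21.97 TPM against 13.1 TPM, on few genes and not tested. The windows had a median GC content of 58.3% against 57.0% and a median of 21 CG dinucleotides against 14. A match is a description of these letters, and no binding was measured.

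The genes for the factors named by these motifs were expressed. Gabpa, encoding the ETS subunit of GA-binding protein, was at 14.8 TPM ± 1.65 (SD, n = 2), Yy1 at 16.0 TPM ± 2.12, Myc, whose product binds CACGTG, at 12.5 TPM ± 0.962, and Nrf1 at 10.4 TPM ± 1.15. Esrra, encoding an estrogen-related receptor, was at 3.63 TPM ± 0.757. The coactivator gene Ppargc1a was listed at 0 TPM in both libraries, with 1 and 0 counts, and its relative Ppargc1b was at 0.640 TPM ± 0.0707.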

How the data were processed

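Total RNA-seq of 2 libraries of 1 group was used, with 49473848 and 44260902 expected counts. The deposited tables give, per the file headers, expected counts, TPM, FPKM, posterior mean counts and TPM, and the percent of a gene's TPM on each of its transcripts. They rest on mm10 and GENCODE M4, per the deposited metadata. Aligner and quantifier: not given in the sources used here. Names, types and coordinates came from GENCODE M21 by identifier without version, which matched 42462 of 43346 genes. The group and all lists were chosen with earlier results of these data known.

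Expected counts were rounded for edgeR 4.0.16 in R 4.3.3, with TMM scaling (factors 0.985 and 1.02) and log2 CPM ratios at prior count 2. Over 12855 genes an intercept-only fit gave a biological coefficient of variation of 0.264. The ratio estimate was checked on simulated counts with known differences, which gives no test of any gene. Levels are medians of log2(TPM + 1), which understates differences of low genes. Copies were found with BLAST 2.17.0. Named in full were the 10 highest and 10 lowest genes, the 5 furthest apart each way at 10 CPM or more, the Mrps18 versions, genes with changing or divided transcripts, and the highest and lowest 3 of each pathway list. Genes named for head-to-head position, copies, effective length or motifs were chosen after their values were seen. Alternatives were a pseudocount of 0.1, deposited FPKM, posterior means, rescaled TPM, means, filters, DESeq2 1.42.0 size factors, GC correction and each library alone. Those that leave out Mrpl23 and Mrpl33 or take subunits by symbol were chosen after seeing the data.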

Additional observations from a re-analysis of the deposited data

How the results depend on the processing

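The median log2 level of 3.88 became 5.25 in FPKM and 6.06 in rescaled TPM, which are other scales. Taking subunits by symbol alone moved large minus small from -0.004 to -0.038. Means in place of medians gave 0.16 ± 0.099 (SD, n = 2) for bacterial-type minus mitochondrion-specific genes. They gave -4.35 against cytosolic ribosomal genes, -0.97 against oxidative phosphorylation genes and 1.33 against all protein-coding genes. For the last 3 contrasts, in that order, a pseudocount of 0.1 gave -4.91, -1.43 and 1.61, FPKM gave -4.88, -1.41 and 1.55, rescaled TPM gave -4.90, -1.42 and 1.59, and leaving out genes below 1 TPM gave -4.88, -1.55 and 0.98. Rescaled TPM put 77 genes at or above 10 and FPKM 71, against 49 in TPM. Scaling by total count alone gave a median ratio of -0.011, and a fold of 2 called 0 genes apart. Members held 0.357% of the expected counts on nuclear protein-coding genes. Thresholds of 80% and 95% gave 47 and 33 genes with a leading transcript that high in both libraries, against 38 at 90%. Of 83 values under an alternative, 60 were counted as the same and 23 as moved. The limit was 1 SD or, for counts of genes, 1.5 times. An exception was the median ratio under total count scaling. It was counted as moved, from -0.055 to -0.011, although the SD beside it was 0.291. No difference larger than its SD changed sign. Each library alone gave 3.80 to 3.95 for the level, 54 and 51 genes at or above 10 TPM and 43 and 46 genes with a leading share of at least 90%. No paired analysis was possible because there is only 1 group. With 2 libraries no gene was tested, and genes under 500 counts in a library, 6 of 78, have the least precise values.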
